A study of Mus musculus with 2 samples.

Results

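The 47 genes described here encode nucleolar proteins that process ribosomal RNA and assemble ribosomal subunits, and they were taken as a named list from the 54146 genes of a single-cell RNA-seq experiment on mouse embryonic stem (ES) cells. The rule used the symbols alone and no measured value, and each symbol was matched to the Ensembl identifier of a gene present in both libraries. All 47 had at least 200 UMIs over the ES cells of both libraries, a minimum that 9643 genes reached. A UMI is a molecular tag that marks 1 captured transcript.

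The experiment compared wild-type (WT) with *Lin28a* knockout ES cells, each as 1 inDrop library, a method that captures single cells in droplets with barcoded primers. *Lin28a* encodes an RNA-binding protein of pluripotent cells. Both lines were grown in LIF/2i medium on gelatin with MEF feeder cells for 2 days, and the labels describe both as ES cells of the inner cell mass, the WT cells as untreated. By the study's methods the WT library came from the transfected WT clone a2.1 and the knockout library from clone a3.5, made with CRISPR/Cas9 and a guide against the second *Lin28a* exon. Each genotype is thus a single clone and a single library. No test was made, all intervals are exact 95% intervals of counting error, and genotype, clone and culture cannot be told apart.

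Ribosomes are built in the nucleolus, where RNA polymerase I transcribes a long precursor that holds most of the ribosomal RNAs. Small nucleolar RNAs guide the methylation and pseudouridylation of this precursor, a large assembly called the small subunit processome folds and cuts it, and separate sets of factors carry the pre-40S and pre-60S particles on to the cytoplasm. ES cells are known for large nucleoli and high demand for ribosomes.

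Cells were barcodes of 500 UMIs or more in which mitochondrial genes took up to 20% of UMIs, and those with at least 0.3% of their UMIs on *Col1a1*, *Col1a2* and *Col3a1* were set apart as fibroblasts of the feeder layer. This left 1808 WT ES cells with 11207628 UMIs and a median of 6112 UMIs per cell, and 1599 knockout ES cells with 9225733 UMIs and a median of 5072. *Lin28a* had 110.6 CPM (104.5 to 117) in WT and 36.9 CPM (33.0 to 41.0) in knockout ES cells, where CPM are summed UMIs per 1000000 UMIs of the same cells. The knockout library thus kept *Lin28a* transcripts at 0.333 of the WT level (0.295 to 0.376). All 10 ES markers checked were found in both libraries and summed to 4490 CPM in WT and 4618 CPM in knockout ES cells, while *Sox2* alone among them was past 1.5-fold (0.568). Fibroblast markers other than the 3 collagens, 12 in all, summed to 419 and 423 CPM in ES cells with 0 of them absent, and *Fn1* gave 389 and 378 CPM of these. The other 11 summed to 29.3 and 45.5 CPM, a ratio of 1.56 (1.34 to 1.80), with intervals above 1 for *S100a6* (1.71), *Col6a1* (5.59, from 5 and 23 UMIs) and *Ccl2* (10.1, from 3 and 25 UMIs). The part of fibroblast transcripts in the results was not tested. The 7 primitive endoderm markers summed to 9.81 and 13.4 CPM. *Foxa2* had 3 UMIs in knockout cells and 0 in WT, where 0 was read as at most 3 UMIs or 0.268 CPM. That bound is a rule apart from the exact intervals.

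RefSeq promoter windows of GRCm38.p6, 250 bases before to 50 after the start, were at hand for 40 of the 47 genes and not for *Npm1*, *Bop1*, *Rrp12*, *Tcof1*, *Gnl2*, *Rrs1* and *Fbl*. Upstream stretches without an exon of any annotated gene are shown for 3 of the genes that stood lowest in the knockout library (*Ncl*, *Wdr75*, *Ddx10*), for the gene lowest in cells rich in ribosomal protein (RP) transcripts (*Utp18*) and for 2 that stood higher in those cells (*Nop2*, *Nhp2*). Capitals mark the E-box letters CACGTG and the ETS-type letters CGGAAG or their reverse CTTCCG. Each stretch is read 5′ to 3′ on its gene's strand, and genes on the opposite strand have an exon in the windows of *Ncl* (*C130036L24Rik*) and *Utp18* (*Mbtd1*).
Ncl, chr1:86359456-86359573, minus strand: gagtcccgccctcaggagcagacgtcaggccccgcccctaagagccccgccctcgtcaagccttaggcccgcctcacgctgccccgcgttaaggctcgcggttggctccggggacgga
Wdr75, chr1:45795046-45795165, plus strand: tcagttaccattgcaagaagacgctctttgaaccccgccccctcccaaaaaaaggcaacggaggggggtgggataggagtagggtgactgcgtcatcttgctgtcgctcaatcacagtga
Ddx10, chr9:53248113-53248232, minus strand: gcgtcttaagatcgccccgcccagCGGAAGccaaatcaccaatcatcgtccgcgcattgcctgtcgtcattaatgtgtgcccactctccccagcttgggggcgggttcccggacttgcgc
Utp18, chr11:93885767-93885851, minus strand: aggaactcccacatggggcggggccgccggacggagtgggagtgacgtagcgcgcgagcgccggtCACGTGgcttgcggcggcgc
Nop2, chr6:125131763-125131882, plus strand: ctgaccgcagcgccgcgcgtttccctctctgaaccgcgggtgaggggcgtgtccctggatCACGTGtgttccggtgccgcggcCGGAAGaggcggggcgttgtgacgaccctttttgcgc
Nhp2, chr11:51619615-51619734, plus strand: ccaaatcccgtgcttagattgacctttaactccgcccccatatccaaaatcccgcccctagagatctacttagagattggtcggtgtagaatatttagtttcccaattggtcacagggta

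Over the whole 300-base windows and both strands, CACGTG lay in the windows of 9 of the 40 genes and CGGAAG in those of 26. Of their windows 20.5% held CACGTG, against 7.15% of all 32851 windows and 10.9% of the windows of genes past the 200-UMI minimum. For CGGAAG these shares were 61.4%, 16.9% and 34.7%. Genes with CACGTG had a median knockout over WT ratio of 0.924 and ranged from 0.652 (*Utp4*) to 1.17 (*Pes1*), against a median of 0.835 for the other 31. Those with CGGAAG had a median of 0.920 and ranged from 0.590 to 1.23, against 0.776 for the other 14. Holders of each word thus stood on both sides of 1. Both words were picked after the members' windows had been looked at, and a match describes letters only.

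Summed over the 47 genes, WT ES cells had 13091 CPM (13024 to 13158) and knockout ES cells 9885.9 CPM (9821.9 to 9950.3), a ratio of 0.755 (0.749 to 0.761). In other words 1.31% of all WT UMIs and 0.989% of knockout UMIs fell on these genes. The median cell had 1.30% (quartiles 1.10% and 1.49%) in WT and 0.950% (0.768% and 1.12%) in the knockout library, so the lower quartile of WT cells lay near the upper quartile of knockout cells. *Ncl* and *Npm1* together carried 47.7% of the WT and 40.6% of the knockout UMIs of the list and had a ratio of 0.644 (0.636 to 0.652). Without them the other 45 genes had 6849 and 5868 CPM, a ratio of 0.857 (0.847 to 0.866).

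Gene by gene the list was divided. The ratio was under 1 for 31 genes and over 1 for 16. The interval lay below 1 for 26, above 1 for 10 and across 1 for 11. Over all genes it lay below 1 for 28.2% and above 1 for 30.5%. An interval is narrower for a gene with more UMIs. Shares of intervals over all genes, here and below, were not matched for UMI count. The median gene had a ratio of 0.916, against 1.02 over all 9643 genes, of which 46.4% were under 1. At least 1.5-fold lower in the knockout library were 6 of the 47 (*Gnl3*, *Mphosph10*, *Ddx10*, *Ncl*, *Wdr75* and *Utp4*), beside 7.89% of all genes. At least 1.5-fold higher were 0 of the 47, beside 6.88% of all genes. Read against these shares the lower count exceeds that over all genes by few genes, and 4 more genes stood just outside the limit, *Gnl2* at 0.671, *Npm1* at 0.675 and *Nop14* and *Nop58* at 0.676. The plot of ratios by role shows the spread within each role.

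**Figure D1:**
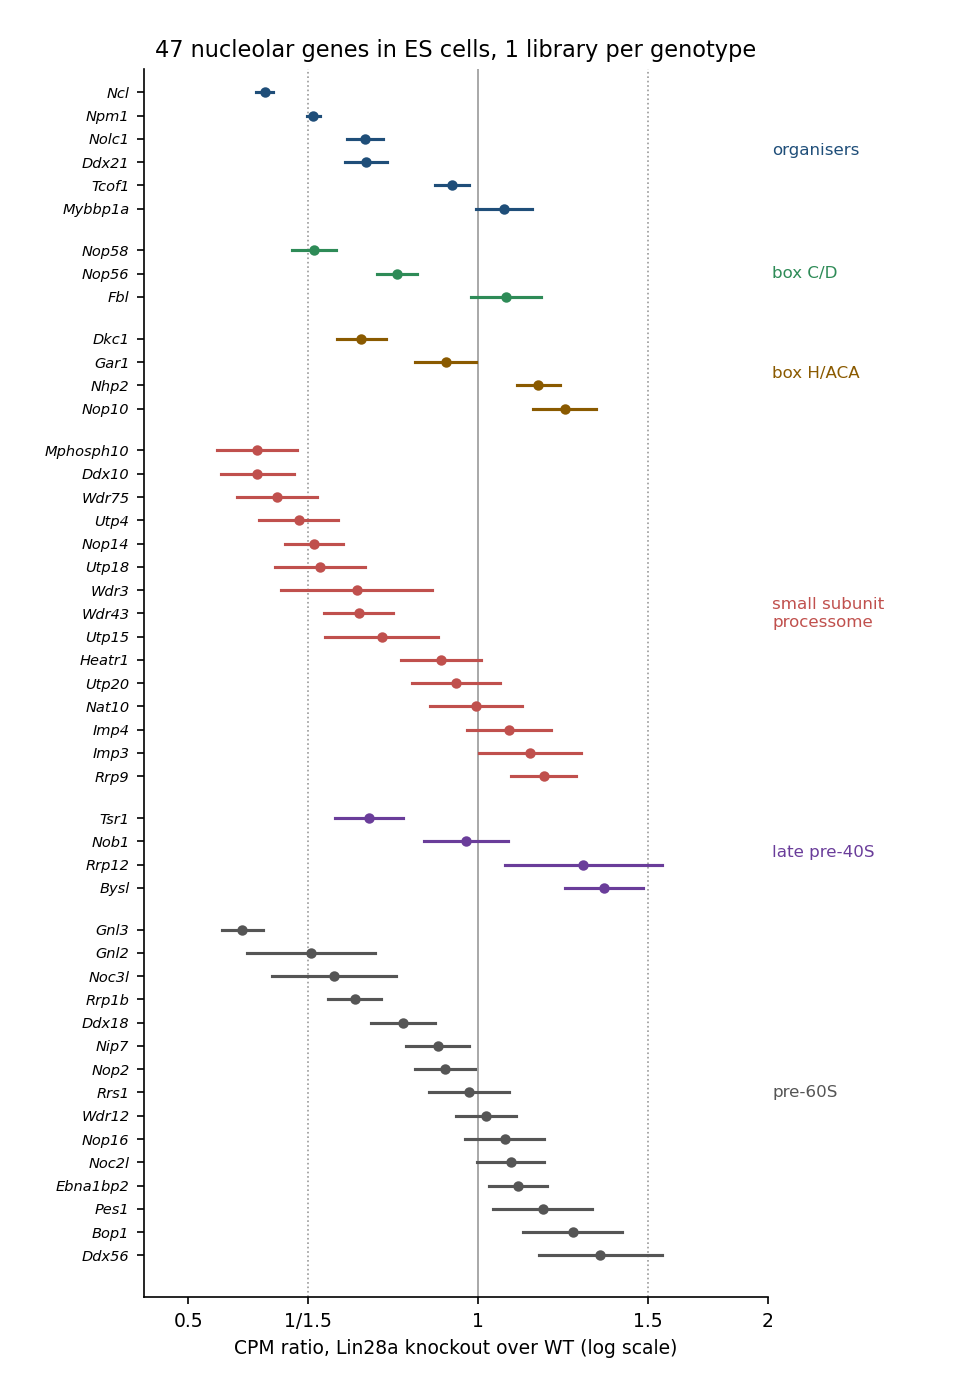
Ratio of CPM, *Lin28a* knockout over WT, on a log axis for the 47 genes in ES cells, with points for the ratio, lines for the 95% counting interval and colours for the role. Dotted lines mark 1.5-fold in each direction: 6 genes lie at or beyond the lower line, 0 beyond the upper, and *Gnl3* (0.569) and *Bysl* (1.35) are the extremes.

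Ratios followed the base composition of the transcripts. Over 7995 protein-coding genes the log2 ratio rose with the GC content of the transcript (Pearson 0.525, Spearman 0.566), and over the 47 genes likewise (Pearson 0.679, Spearman 0.674), all points sharing the same pair of libraries. The 12 members among the 1999 protein-coding genes of lowest GC content (up to 45.3%) had a median ratio of 0.676, with 11 under 1, where all 1999 had 0.804. The 10 members among the 1999 genes of highest GC content (from 54.5%) had a median of 1.11, with 3 under 1, where all 1999 had 1.19. Members thus stood below genes of like GC content at both ends. When each ratio was divided by the median ratio of the 500 protein-coding genes nearest in GC, a step added after seeing the data, the summed ratio was 0.834, the median 0.901, 33 of 47 genes were under 1 and 0 passed 1.5-fold in either direction, where 3.52% of all genes were at least that much lower. The direction of the sum therefore held while each of the 6 calls was lost, narrowly for *Gnl3* (0.670) and *Utp4* (0.686), and with *Ddx10* at 0.719, *Wdr75* at 0.726, *Mphosph10* at 0.732 and *Ncl* at 0.734. The genes under 1 were not all the same, since *Nip7* (1.03), *Heatr1* (1.01) and *Utp20* (1.05) moved over 1 with the step, and *Fbl* (0.914), *Noc2l* (0.930), *Rrp9* (0.963), *Mybbp1a* (0.971) and *Imp3* (0.974) moved under it. Whether GC content or the genotype moved these ratios was not tested.

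**Figure D2:**
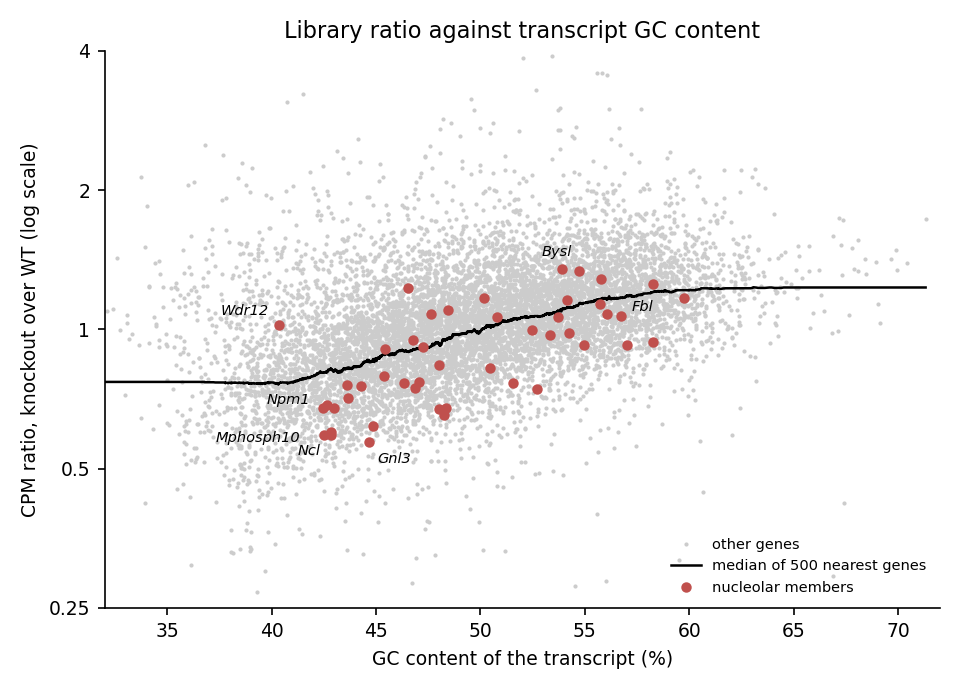
CPM ratio of knockout over WT (log axis) against the GC content of the transcript in percent, with grey points for other genes with at least 200 UMIs, the black line for the median ratio of the 500 protein-coding genes nearest in GC and red points for the 47 genes; genes beyond the axes are not drawn. The line rises with GC, and *Ncl* (0.601), *Mphosph10* (0.590) and *Gnl3* (0.569) lie under it while *Wdr12* (1.02) lies above.

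Of the 6 organisers of the nucleolus, 5 stood lower in the knockout library, beside 46.4% of all genes. *Ncl*, an abundant nucleolar RNA-binding protein (minus strand of chromosome 1, from 86344719 to 86359400 in GRCm38, the build of all gene positions given), had 2613 CPM (2583 to 2643) in WT and 1569.8 CPM (1544 to 1596) in knockout cells, a ratio of 0.601 (0.589 to 0.613). *Npm1*, nucleophosmin, a histone chaperone of the granular outer nucleolus (chromosome 11 from 33152287 to 33163206, minus strand), had 3629 CPM (3594 to 3664) and 2448 CPM (2417 to 2481), a ratio of 0.675 (0.664 to 0.686). Neither pair of intervals overlapped, and both stayed under 1 after the GC step, at 0.734 and 0.836. *Nolc1*, a chaperone of small nucleolar ribonucleoproteins, had 492 and 376 CPM (0.764), and the helicase *Ddx21* had 356 and 272 CPM (0.765). *Tcof1*, the treacle protein of RNA polymerase I transcription, had 484 and 454 CPM (0.939, after the GC step 0.780). *Mybbp1a*, a nucleolar repressor that binds MYB, was the only organiser over 1, at 166 and 177 CPM, with an interval that held 1. The same 5 had an interval below 1, beside 28.2% of all genes, and the summed ratio of the 6 was 0.684 (0.677 to 0.692).

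The box C/D proteins carry 2′-O-methylation of ribosomal RNA. *Fbl*, fibrillarin, the methyltransferase itself (chromosome 7 from 28169710 to 28179269, plus strand), had 107 CPM (101.2 to 113) in WT and 115 CPM (108 to 122) in knockout cells, a ratio of 1.07 (0.984 to 1.16). The level of *Fbl* was therefore not separated between the libraries by counting error, and the GC step put it under 1. Its scaffold partners lay lower, *Nop58* at 350.03 and 237 CPM (0.676) and *Nop56* at 371 and 305 CPM (0.823). The box H/ACA proteins carry pseudouridylation and were split evenly. *Dkc1*, dyskerin, the pseudouridine synthase, had 267 and 202 CPM (0.757) and *Gar1* 152 and 140.4 CPM (0.925), while *Nhp2* had 265 and 306 CPM (1.16) and *Nop10* (chromosome 2 from 112261926 to 112263269, plus strand) 120.4 CPM (114 to 127) and 148 CPM (140.3 to 156), a ratio of 1.23 (1.14 to 1.33). Members of a single enzyme complex thus stood on both sides of 1, and the summed box H/ACA ratio was 0.991 (0.960 to 1.02). *Nop10* is an exception to the GC pattern, with 46.5% GC and an adjusted ratio of 1.38, the highest of the list.

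Of the 15 genes of the small subunit processome 12 were under 1, beside 46.4% of all genes. The interval lay below 1 for 9 and above 1 for 2, beside 28.2% and 30.5% of all genes. The median GC content of this role was 46.9%. Its median ratio was 0.752 and the summed ratio 0.786 (0.767 to 0.805). *Mphosph10*, which binds the U3 small nucleolar RNA particle (chromosome 7 from 64376527 to 64392268, minus strand), had 117 CPM (111 to 124) and 69.2 CPM (63.9 to 74.7), a ratio of 0.590 (0.536 to 0.649). Its partners in the same complex, *Imp3* and *Imp4*, had ratios of 1.13 and 1.08, the latter not separated from 1, and after the GC step *Imp3* turned to 0.974. *Ddx10*, a DEAD-box helicase (chromosome 9 from 53098635 to 53248053, minus strand), had 141 CPM (134 to 148) and 83.0 CPM (77.3 to 89.1), also 0.590 (0.541 to 0.644). *Wdr75* (chromosome 1 from 45795166 to 45823619, plus strand) had 116 CPM (110 to 122) and 71.8 CPM (66.4 to 77.4), a ratio of 0.619 (0.563 to 0.680). *Utp4* (chromosome 8 from 106893636 to 106923088, plus strand) had 114 CPM (108 to 121) and 74.4 CPM (68.9 to 80.1), a ratio of 0.652 (0.593 to 0.715). *Wdr75* and *Utp4* belong to the subcomplex that links transcription of ribosomal DNA to processing. Its other members here were *Wdr43* (0.752), *Utp15* (0.794) and *Heatr1* (0.916, the interval of which held 1), so all 5 were under 1 as measured, beside 46.4% of all genes, and 4 of them after the GC step, which put *Heatr1* at 1.01. *Nop14* (0.676), *Utp18* (0.686) and *Wdr3* (0.748) also had intervals below 1. *Utp20* (0.949) and *Nat10*, an RNA acetyltransferase (0.995), were not separated from 1, and *Rrp9*, a U3-specific protein with the highest GC content of the list (59.8%), had 117 and 136 CPM, a ratio of 1.17 (adjusted 0.963).

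Among the 4 factors of late pre-40S particles the sum was level, with a ratio of 0.996 (0.947 to 1.05), and the genes diverged. *Bysl*, bystin (chromosome 17 from 47599331 to 47611492, minus strand), had the highest ratio of the list, with 76.2 CPM (71.2 to 81.5) in WT and 103 CPM (96.5 to 109.7) in knockout cells, a ratio of 1.35 (1.23 to 1.48). *Rrp12*, an export factor (chromosome 19 from 41862851 to 41896173, minus strand), had 19.9 CPM (17.4 to 22.7) and 25.6 CPM (22.4 to 29.1), a ratio of 1.29 (1.07 to 1.55), although the CPM intervals of the libraries just overlapped. After the GC step *Bysl* stood at 1.22 and *Rrp12* at 1.10. *Tsr1*, a GTPase-like factor, had 138 and 106 CPM (0.771), and *Nob1*, the nuclease that makes the 3′ end of 18S RNA, had 79.1 and 77.0 CPM (0.972).

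The 15 pre-60S factors held both the lowest gene and several of the highest, with a summed ratio of 0.861 (0.844 to 0.879). Of these 8 were under 1 and 7 over, beside 46.4% of all genes under 1. Intervals lay below 1 for 7 and above 1 for 4, beside 28.2% and 30.5% of all genes. *Gnl3*, nucleostemin, a GTPase abundant in stem cells (chromosome 14 from 31012433 to 31019152, minus strand), had 464 CPM (451 to 477) in WT and 264 CPM (254 to 275) in knockout cells, a ratio of 0.569 (0.543 to 0.598) and, after the GC step, 0.670. Its relative *Gnl2* had 43.3 and 29.0 CPM (0.671). *Noc3l* (0.709), *Rrp1b* (0.745), the helicase *Ddx18* (0.835), *Nip7* (0.908) and the methyltransferase *Nop2* (0.924) also had intervals below 1, of which *Nip7* turned to 1.03 after the GC step. The PeBoW complex, which matures the large subunit RNA, stood at or above 1 in all its members, beside 46.4% of all genes under 1. After the GC step *Bop1* stood at 1.04, *Pes1* at 1.16 and *Wdr12* at 1.33. *Bop1* (chromosome 15 from 76452989 to 76477277, minus strand) had 49.9 CPM (45.8 to 54.2) and 62.5 CPM (57.5 to 67.9), a ratio of 1.254 (1.11 to 1.41), *Pes1* had 52.0 and 60.7 CPM (1.17) and *Wdr12* had 149 and 152 CPM (1.02, interval across 1). *Ddx56*, a helicase (chromosome 11 from 6258919 to 6267772, minus strand), had 31.4 CPM (28.2 to 34.9) and 42.1 CPM (38.0 to 46.5), a ratio of 1.34 (1.16 to 1.55), and *Ebna1bp2* had a ratio of 1.10 with its interval above 1. After the GC step *Ddx56* stood at 1.18 and *Ebna1bp2* at 1.15. *Rrs1* (0.979), *Nop16* (1.07) and *Noc2l* (1.08) were not separated from 1.

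By annotation 7 of the 47 genes carry small nucleolar RNA genes inside them, *Ncl*, *Nop56*, *Nop58*, *Dkc1*, *Wdr43*, *Tsr1* and *Gnl3*. All 7 had a ratio under 1, from 0.569 to 0.823 with a median of 0.752, beside 46.4% of all genes. Of the other 40, 24 were under 1, with a median of 0.944. Among the 12 members of lowest GC content, hosts or not, 11 were under 1. The hosts also had the lower GC content, a median of 44.3% against 49.3%, and after the GC step the medians were 0.833 and 0.908.

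The difference between the libraries was also read among cells with a like share of UMIs on the 84 RP genes, since RP share differed between them (median 9.60% in WT and 10.7% in knockout cells). Under 5% RP, in 83 WT and 225 knockout cells, the summed ratio was 0.978 (0.902 to 1.06) and held 1. From 5 to 10% it was 0.775 (0.765 to 0.784), from 10 to 15% 0.780 (0.769 to 0.792) and from 15% up 0.818 (0.7999 to 0.836). The list was thus lower in the knockout library in the 3 upper bins and not separated in the lowest, whose cells had a median of only 789 and 1214 UMIs. By depth the ratio was 0.834 at 500 to 2000 UMIs, 0.677 at 2000 to 5000, 0.726 at 5000 to 10000 and 0.817 above, and in barcodes under 500 UMIs, which were not kept, 0.928.

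The list was also compared between cells rich and poor in RP transcripts within each library. In cells with at least 10% RP the summed level was 11586 CPM in 764 WT cells, against 14242 CPM in the 1044 cells below 10%, a ratio of 0.814 (0.805 to 0.822). In the knockout library it was 9105 CPM in 909 cells against 10940 CPM in 690 cells, a ratio of 0.832 (0.822 to 0.843). Both sums rested on *Ncl* and *Npm1*, since without them the ratios were 0.985 and 0.986. The interval of the single gene lay below 1 in both libraries for 18 genes, with a median GC content of 44.0%, and above 1 in both for 15, with a median of 54.7%. Of the 46 genes with 200 UMIs in both contrasts these were 17 and 15, beside 41.0% and 29.1% of all such genes outside the RP set. The split of the list was thus near that over all genes. Of all genes, 56.9% in WT and 56.1% in the knockout library had a ratio under 1.

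The genes lower in RP-rich cells were led by *Utp18*, with a ratio of RP-rich over RP-poor cells of 0.488 in WT and 0.426 in the knockout library, *Npm1* (0.529 and 0.539) and *Rrs1*, of the 5S particle (0.533 and 0.473). *Dkc1* (0.701 and 0.584), *Utp15* (0.710 and 0.544), *Wdr75* (0.629 and 0.732) and *Ddx10* (0.642 and 0.595) followed. Those higher in RP-rich cells were led by *Nhp2* (1.85 and 1.82), *Bop1* (1.78 and 1.80), *Ddx56* (1.59 and 2.42), *Nop10* (1.56 and 1.62) and *Ebna1bp2* (1.52 and 1.36). *Fbl* was also higher there, at 1.43 (1.27 to 1.60) and 1.195 (1.05 to 1.36). At least 1.5-fold lower were 5 of 47 in WT and 8 of 46 in the knockout library, where *Wdr3* was short of 200 UMIs, beside 28.4% and 32.4% of all genes outside the RP set, and at least 1.5-fold higher were 5 and 4, beside 13.2% and 16.1%. The share past the fold was thus smaller than over all genes in each direction, and the median ratios of the members were 1.03 and 1.06, against 0.897 and 0.904 over all genes. The libraries are separate, and over the 47 genes their ratios ran together (Spearman 0.914), with transcript GC shared by both. The plot of both ratios shows few genes off the diagonal, with *Gnl2* at 0.793 in WT and 1.29 in the knockout library.

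**Figure D3:**
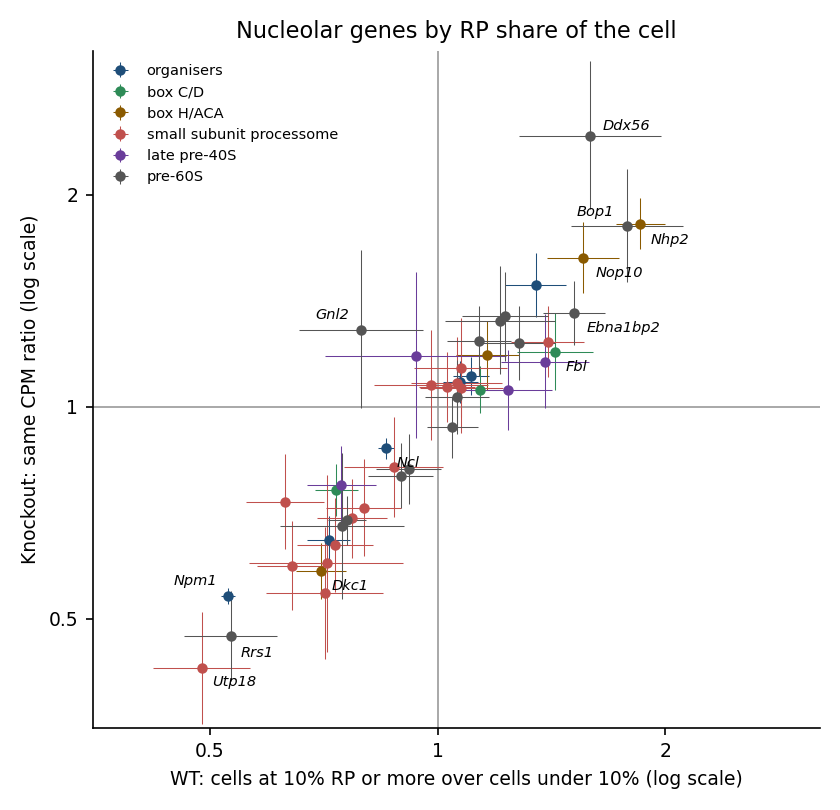
CPM in ES cells with at least 10% RP over CPM in cells under 10%, WT on the x axis and knockout on the y axis (both log), with points for the 47 genes coloured by role and lines for 95% counting intervals. *Utp18* lies lowest (0.488 and 0.426), and *Nhp2*, *Bop1* and *Ddx56* lie highest.

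This contrast followed GC content too. Over protein-coding genes outside the RP set its Spearman correlation with GC was 0.722 in WT (6072 genes) and 0.700 in the knockout library (5527 genes), and over the 47 genes 0.679 and 0.668. With each ratio divided by that of its 500 nearest genes in GC, the summed ratio turned to 1.15 in WT and 1.21 in the knockout library, so the order of RP-rich and RP-poor cells was reversed. With 200 UMIs in the contrast, 14 of 47 genes in WT and 13 of 46 in the knockout library were then under 1. Under the same step *Ncl* had 1.49 and 1.62, *Npm1* 0.932 and 1.05 and *Utp18* 0.850 and 0.813, while *Rrs1*, with 54.2% GC, was lowest at 0.454 and 0.403 and *Nop10* was highest at 2.17 and 2.48. The step left 1 gene at least 1.5-fold lower in each library, *Rrs1*, beside 8.12% and 10.1% of all genes, and 4 in WT and 11 in the knockout library at least 1.5-fold higher, beside 12.2% and 16.1% of all genes. At the 5% limit in place of 10%, without the GC step, the summed ratios were 1.37 in WT and 1.06 in the knockout library. These rested on *Ncl* and *Npm1*, and only 83 WT and 225 knockout cells lay under 5%. The other 45 genes had 6858 CPM under 5% in WT, against 6558 to 6911 CPM in the upper bins. In knockout cells they had 7197 CPM under 5%, against 5777 to 5926 CPM in the upper bins.

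Over 4 bins of RP share the leading pair and the rest took different courses. *Npm1* had 1480 CPM (1219 to 1781) under 5% in WT cells, 4596 CPM at 5 to 10%, 3018.5 CPM at 10 to 15% and 1232 CPM from 15% up, and in knockout cells 1034, 3529, 2415 and 758 CPM. *Ncl* had 1255, 2807, 2592 and 1981 CPM in WT and 1155, 1741, 1580.5 and 1306 CPM in knockout cells. Both genes were therefore highest at 5 to 10% RP in both libraries and lower on either side. The other 45 genes had 6858, 6895, 6911 and 6558 CPM in WT, a course that moved little, and 7197, 5804, 5777 and 5926 CPM in knockout cells. Cells under 5% RP were shallow and had the highest mitochondrial share, a median of 4.32% in WT and 5.83% in knockout cells, against 0.172% and 0.259% from 15% up. The part of depth and of mitochondrial transcripts in these courses was not tested.

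**Figure D4:**
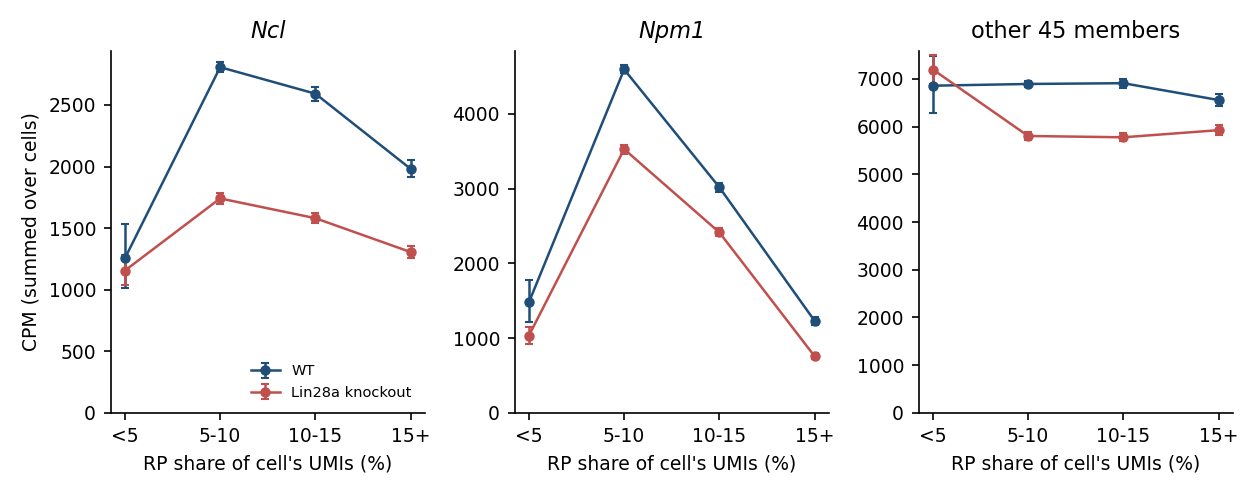
CPM summed over ES cells in 4 bins of RP share (x axis, percent of a cell's UMIs) for *Ncl*, *Npm1* and the other 45 genes, WT in blue and *Lin28a* knockout in red, with bars for 95% Poisson intervals. *Npm1* peaks at 5 to 10% (4596 and 3529 CPM) and falls to 1232 and 758 CPM from 15% up, while the other 45 stay between 6558 and 6911 CPM in WT.

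The roles were divided in these bins too. From the 5 to 10% bin to the bin from 15% up, the organisers went from 8896 to 4676 CPM in WT. In knockout cells they went from 6514 to 3388 CPM. This fall lay mainly in *Ncl* and *Npm1*, with *Ddx21* at 406 and 219 CPM in WT and 349 and 173 CPM in knockout cells. *Tcof1* was higher at the upper end, at 461 and 560 CPM in WT and 407 and 554 CPM in knockout cells. So was *Mybbp1a*, at 144 and 232 CPM in WT and 124 and 251 CPM in knockout cells. The processome went from 1554 to 1089 CPM in WT and from 1237 to 931 CPM in knockout cells. The box H/ACA genes had a higher sum at the upper end, 741 and 1012 CPM in WT and 717 and 1001.5 CPM in knockout cells, although *Dkc1* was lower there, at 305 and 167 CPM in WT and 250.4 and 120.5 CPM in knockout cells. Pre-60S factors were level as a sum, at 1965 and 1897 CPM in WT and 1661 and 1712 CPM in knockout cells. So were late pre-40S factors, at 313 and 304 CPM in WT. Single pre-60S genes went both ways in WT. *Rrs1* had 109 and 17.6 CPM and *Gnl3* 516 and 288 CPM, while *Bop1* had 37.8 and 97.5 CPM and *Ddx56* 25.2 and 49.7 CPM. *Nhp2* stepped up over the 3 upper bins, with 195, 294 and 483 CPM in WT and 219, 299.8 and 509.8 CPM in knockout cells, as did *Ebna1bp2*, with 129.5, 164 and 253 CPM in WT. *Utp18* did the opposite, at 108, 69.3 and 18.8 CPM in WT and 90.2, 54.3 and 6.05 CPM in knockout cells.

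Cell by cell, among 1023 WT and 501 knockout cells of 5000 to 10000 UMIs, the share of UMIs on the 47 genes was lower where RP share was higher (WT Pearson -0.622 and Spearman -0.556, knockout -0.535 and -0.532). Over all 1808 and 1599 ES cells the relation was weaker (WT Pearson -0.288 and Spearman -0.374, knockout -0.263 and -0.314). Both shares have the same total, and with RP UMIs taken out of it the Spearman values were -0.451 and -0.387 in cells of 5000 to 10000 UMIs and -0.267 and -0.164 over all ES cells. RP share also ran against mitochondrial share in these cells (Spearman -0.747 and -0.822). Over the same cells the share of *Ncl* and *Npm1* had a weak correlation with that of the other 45 genes (Spearman 0.150 in WT and 0.0512 in knockout cells). These cells held 96220 UMIs of the list over 1023 cells in WT and 35004 over 501 cells in the knockout library. Over all ES cells the median cell held only 80 and 44 UMIs of the list. Counting error at such counts pulls a correlation toward 0, so how far these genes vary together cannot be read from it. The plot of cells of 5000 to 10000 UMIs shows the 2 clouds displaced from each other at like RP share.

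**Figure D5:**
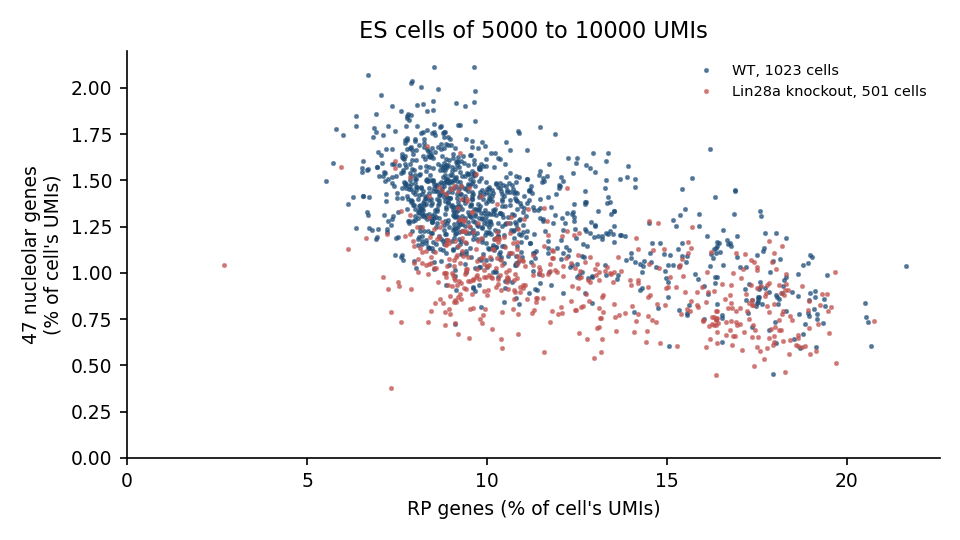
Share of a cell's UMIs on the 47 genes (y axis, percent) against its share on RP genes (x axis, percent), 1 point per ES cell of 5000 to 10000 UMIs, 1023 WT in blue and 501 knockout in red. Both clouds slope down, and the red cloud lies lower over most of the range.

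Feeder fibroblasts gave a level from another cell type. In 48 WT fibroblasts the 47 genes summed to 4198 CPM (4007 to 4396), 0.321 of the ES level, and in 23 knockout-library fibroblasts to 4361 CPM (3987 to 4759), 0.441 of it. All 47 were lower than in ES cells in WT, beside 62.1% of all genes, and 38 had the interval below 1, beside 33.3%. In the knockout library 45 were lower, beside 62.9%, and 19 had the interval below 1, beside 12.5%. These shares of intervals were not matched for UMI count. *Pes1*, *Rrp12* and *Ddx56* had 0 UMIs among 115122 in fibroblasts of the knockout library, which allows up to 26.1 CPM. *Npm1* had 982 CPM (891 to 1080.4) in WT fibroblasts and 1103 CPM (919.7 to 1313) in those of the knockout library, with overlapping intervals. *Ncl* had 626 CPM (553 to 705) and 339 CPM (241 to 463), the lower value in fibroblasts of the knockout library. *Fbl* had 25.5 CPM (12.7 to 45.6) and 104 CPM (53.9 to 182), from 11 and 12 UMIs, and was higher there. Over the roles the fibroblast level ranged from 0.256 of the ES level (box H/ACA) to 0.569 (late pre-40S) in WT. Other lists of the pathway were also lower in WT fibroblasts, the further small subunit factors at 0.481 of their ES level with 2 of 35 genes higher, the further large subunit factors at 0.563 with 3 of 39 higher and the RNA polymerase I list at 0.537 with 2 of 15 higher. In fibroblasts of the knockout library these lists stood at 0.597, 0.640 and 0.739, with 8, 6 and 4 genes higher. The 10 ES markers stood at 0.0686 and 0.137 of their ES level in the same fibroblasts, and the 12 fibroblast markers at 27.4 and 19.95 times theirs. The fibroblast sums of the 47 genes had overlapping intervals between the libraries. *Ncl* and *Fbl* lay in opposite directions. The share of all genes without overlap was not computed, so neither gene is read as a difference between the libraries. These cells were set apart by collagen share alone, and doublets were not removed. Their origin in the feeder layer was not tested. Their median depth also differed, at 8131.5 UMIs in WT and 2295 in the knockout library.

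The other genes of the pathway held few changes past the fold. Of 35 further small subunit factors 1 was at least 1.5-fold lower in the knockout library and 0 higher, with a median of 0.978, beside 7.89% of all genes lower and 6.88% higher. The gene was *Pno1*, a partner of *Nob1*, at 142 and 89.0 CPM (0.626). Of 39 further large subunit factors 1 was lower and 0 higher, with a median of 0.893, and the gene was *Rpf1* at 67.2 and 42.2 CPM (0.628). After the GC step neither was past the fold, with *Pno1* at 0.777 and *Rpf1* at 0.779. Of 15 genes of RNA polymerase I and its factors 12 had 200 UMIs, of which 0 passed the fold in either direction, with a median of 1.003. The median of the 47 genes (0.916) lay between those of the 2 subunit lists, and after the GC step the 3 lists had medians of 1.01, 0.944 and 0.992, against 0.901 for the 47 genes.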

How the data were processed

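Single-cell RNA-seq of 2 inDrop libraries, 1 of WT and 1 of *Lin28a* knockout mouse ES cells, was analysed. The files hold UMI counts for each gene and barcode as the authors deposited them, raw and made with a published inDrop pipeline, and the submitters' processing notes name mm10 and Seurat 2.3.4. The aligner and annotation are not given in the sources used here. Symbols and coordinates are those of GENCODE M21 (GRCm38), to which 54079 identifiers could be matched once versions were dropped and 52480 with versions. The libraries held 12079546 and 10027710 UMIs over 4329 and 6060 barcodes, of which 2472 and 4423 were under 500 UMIs. Barcodes are running numbers, so shared barcodes could not be counted, and doublets were not removed. For each of the 47 genes, at most 8 UMIs per library were recorded as ambiguous.

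The rule for the 47 genes used symbols alone, but this list, the other lists and the comparisons were chosen with earlier results of these data known. UMIs were summed over ES cells and scaled to CPM with exact Poisson intervals, and ratios have intervals conditional on the summed count. The RP set held 84 genes and the mitochondrial set 37. Transcript GC content came from GENCODE. All 47 genes are named by role. Values with intervals are given for *Ncl*, *Npm1* and *Fbl*, which the paper names, for every member past 1.5-fold and for the 5 highest and 5 lowest ratios. Motif words and the stretches printed were chosen after values were seen.

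Alternatives changed the limits for cells, genes, RP share and fold, the denominator, the scaling and the cell weighting. The GC step, the sums without *Ncl* and *Npm1* and, for the fibroblast levels alone, the collagen limit of 0.1% were added after seeing the data. In simulated libraries with counting error only, all 181 genes changed 2-fold among 9405 were recovered within 0.5 on the log2 scale, 6 unchanged genes passed 1.5-fold and 95.6% of intervals held the true ratio. With a GC trend simulated as well, all 184 changed genes among 9412 were recovered and 17 unchanged genes passed. The planted changes were 2-fold and placed without regard to GC content. These runs therefore do not show how changes near 1.5-fold, or changes tied to GC content, would be recovered. Scripts ran under Python 3.11.15 with scipy 1.17.1, numpy 2.4.6, pandas 2.3.3 and, for plots, matplotlib 3.10.9.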

Additional observations from a re-analysis of the deposited data

How the results depend on the processing

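The summed knockout over WT ratio of 0.755 was under 1 in all 15 alternatives, at 0.769 with fibroblasts kept in, 0.767 without RP and mitochondrial UMIs, 0.723 with median of ratios scaling, 0.735 as a mean share per cell, 0.828 with RP bins weighted equally, 0.726 in cells of 5000 to 10000 UMIs, 0.834 after the GC step and 0.857 without *Ncl* and *Npm1*. The count of 6 genes at least 1.5-fold lower became 11 with median of ratios, 12 in cells of 5000 to 10000 UMIs and 0 after the GC step. It was 9 as a mean share per cell, 8 without cells under 5% RP and 4 with RP bins weighted equally. With at least 1000 UMIs per cell, or a collagen limit of 0.1%, it was 7. At a limit 25% over 1 (or its inverse) in place of 50% it was 20, and at a fold of 2 it was 0. The count of 0 higher became 1 with RP bins weighted equally, 1 in cells of 5000 to 10000 UMIs and 4 at the limit of 25%. The ratio of RP-rich over RP-poor cells was less stable. In WT (0.814) it was 0.827 with no UMI minimum, 0.829 with fibroblasts kept in, 0.805 without mitochondrial UMIs, 0.852 without RP and mitochondrial UMIs, 0.848 as a mean share per cell, 0.715 at a limit of 15% and 0.985 without *Ncl* and *Npm1*, and it was reversed at a limit of 5% (1.37) and after the GC step (1.15). In the knockout library (0.832) these values were 0.843 with no UMI minimum, 0.817 without mitochondrial UMIs, 0.869 without RP and mitochondrial UMIs, 0.816 in cells of 5000 to 10000 UMIs, 0.768 at a limit of 15% and 0.986 without *Ncl* and *Npm1*, and it was reversed at 5% (1.06) and after the GC step (1.21). The cause of these shifts was not tested. Fibroblasts chosen at a collagen limit of 0.1% had 0.339 and 0.482 of the ES level. The share of all genes at least 1.5-fold higher was 11.5% at a minimum of 50 UMIs and 3.25% at 1000, and that of genes lower ran from 8.18% to 8.43%. Of 182 values over the 13 genes named with full values, 149 moved by less than their counting interval and 33 moved by more. Among these 13 genes and their alternatives only *Fbl*, whose interval held 1, crossed 1, from 1.07 to 0.914 after the GC step. Of the other 34 genes, for which only the GC step was run, *Rrp9*, *Imp3* and *Nip7* had intervals off 1 and changed direction with it. No paired analysis was possible because each group holds 1 library. With 1 library a group, no value measures how far cultures of the same genotype differ, and counts limit single genes in cells under 5% RP and in fibroblasts.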
